A study of Mus musculus with 7 samples.

Results

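The cytosolic ribosomal protein genes were taken by name: every gene whose symbol starts with Rps or Rpl followed by a number, with Rpsa and Rplp0 to Rplp2, and without the S6 kinases (Rps6k genes). Of 18820 genes measured with a symbol of their own, 77 met this rule, and all 77 matched a mouse gene of RefSeq. They fell into 25 genes of the small (40S) subunit, 42 of the large (60S) subunit and 10 that carry such a name without being the standard gene of a subunit. Those 10 were the paralogs Rpl3l, Rpl10l, Rpl39l, Rps4l and Rps27l, the Rpl7-like gene Rpl7l1, the Rpl32 copy Rpl32l, the retrogene Rps23rg1, the pseudogene Rps19-ps3, and Rps19bp1, which encodes a binding protein of Rps19. The name rule itself used no measured value, though the members were chosen with earlier results of these data known. The row that stands for each gene was that of highest mean level. Genes of this pattern without a row under their symbol alone were not analysed here.

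The cells were 3T3-L1, an established mouse pre-adipocyte line that turns into fat cells under a hormone mixture. One group, SCD inhibitor (3 arrays), was kept in 1 µM of an inhibitor of stearoyl-CoA desaturase, the desaturase that turns saturated into monounsaturated fatty acids, and the other, DMSO (4 arrays), in the solvent. Both were induced for 2 days with isobutylmethylxanthine, dexamethasone and insulin, kept in insulin, and harvested on day 7. The labels name neither the compound nor whether replicates were separate cultures, so the p-values reflect no more than the scatter among the arrays, part of which may be technical, and a single line cannot stand for adipose tissue.

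The ribosome makes all cellular protein, from a small subunit that reads the mRNA and a large one that joins the amino acids. Ribosomal protein mRNAs are among the most abundant of a growing cell. They begin with a stretch of pyrimidines, the terminal oligopyrimidine or TOP tract, through which mTORC1 and the RNA-binding protein Larp1 govern their translation, so that ribosomal protein output can change with little change of mRNA. Several members serve as reference genes in quantitative PCR, among them Rplp0 (also known as 36B4), Rps18 and Rpl13a.

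Runs of pyrimidines near the annotated start are a sequence feature that the choice of members did not use. RefSeq's promoter sequences (GRCm38.p6) matched 62 of the 77 members. An unbroken run of at least 8 bases made only of C and T, read on the gene's own strand and touching the stretch from 20 bases before to 30 bases after the annotated start, was present in 41 of these 62 (66.1%), against 7147 of all 27025 genes with such a sequence (26.4%). It was found in 14 of 22 40S genes and 23 of 32 60S genes. Of the 54 standard members with a promoter sequence, the 37 with such a run had a median log2 difference of 0.033 and the 17 without it one of 0.043. The ETS-type motif CCGGAAG, searched on both strands over the whole 300 bases, stood in 26 of the 62 (41.9%) and in 9.93% of all genes. The letters AAGATGGC, searched likewise, stood in 6 of the 62 (9.68%) and in 3.19% of all genes. Where a gene had several promoter sequences, that with the longest run was taken, and a motif in any of them counted. A gene with more annotated starts thus had more chances to be counted, and the shares were not adjusted for that. The 6 promoters below show such runs in 40S genes that lay higher with the inhibitor on every array (Rps12, Rps9, Rps25) and in genes whose groups met or overlapped (Rps6, Rps18, Rpl13a). Each runs from 50 bases before to 30 bases after the annotated start, 5′ to 3′ on the gene's strand, with the longest run of C and T in capitals. They were picked after their values were seen, and all of them hold such a run. The run crosses the annotated start in Rps9, Rps6 and Rps18, lies wholly before it in Rps25 and begins after it in Rps12 and Rpl13a, so a run shown here is not established as the TOP tract of the mRNA.
Rps12, chr10:23787180-23787259, minus strand: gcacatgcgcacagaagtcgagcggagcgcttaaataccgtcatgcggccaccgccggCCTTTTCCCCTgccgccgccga
Rps9, chr7:3703991-3704070, plus strand: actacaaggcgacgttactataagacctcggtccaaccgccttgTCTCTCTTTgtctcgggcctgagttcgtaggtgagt
Rps25, chr9:44407664-44407743, plus strand: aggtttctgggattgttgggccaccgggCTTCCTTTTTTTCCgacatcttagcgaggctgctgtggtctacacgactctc
Rps6, chr4:86857338-86857417, minus strand: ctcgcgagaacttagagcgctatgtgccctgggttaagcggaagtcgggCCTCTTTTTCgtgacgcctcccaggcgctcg
Rps18, chr17:33955636-33955715, minus strand: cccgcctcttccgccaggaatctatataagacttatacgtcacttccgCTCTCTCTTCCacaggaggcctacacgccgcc
Rpl13a, chr7:45128716-45128795, minus strand: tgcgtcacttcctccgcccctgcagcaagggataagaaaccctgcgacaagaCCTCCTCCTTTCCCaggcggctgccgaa

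Values are log2 expression levels made by the authors with RMA, 1 array per sample, and a difference is given as SCD inhibitor minus DMSO on that scale with its standard error (SE). Calls rest on limma with a threshold of 0.05 for the p adjusted over all 18820 genes. With 7 arrays the precision is set by their number, and the median SE over all genes was 0.039. Adipocyte markers stood high on the arrays, with mean levels of 10.26 to 12.71 for 8 of 8 genes and no call among them. Of the 4 measured pre-adipocyte or fibroblast markers (8.85 to 10.22) 3 were called higher with the inhibitor, while macrophage, endothelial, muscle and germ cell markers lay between 2.96 and 6.20. The part of remaining precursor cells in the results below was not tested. In such bulk samples fewer cells of a type and less RNA per cell cannot be told apart.

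The inhibitor left most ribosomal protein transcripts within a few percent of their DMSO level. Only Rps12, a 40S protein, was called higher, by 14.5%, and only Rpl10l, a paralog of Rpl10 known from testis, was called lower. The other 75 members did not pass. The median difference was 0.035 over the 77 members, 0.087 over the 40S genes and 0.028 over the 60S genes, against -0.0037 over all genes. Members called were 2 of 77 (2.60%), where limma called 8.00% of all genes, 3.62% higher and 4.37% lower. Among the 1545 other genes at a level like that of the members (a mean of at least 9.94, the members' lower quartile) 18.1% were called, 8.03% higher and 10.1% lower. The members' call share was below both, and no test was made of it. When the arrays were centred on their medians, 5 members were called higher, all of the 40S subunit, and Rpl10l lower. That fit called 12.4% of all genes, 1296 of them higher and 1030 lower.

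**Figure D1:**
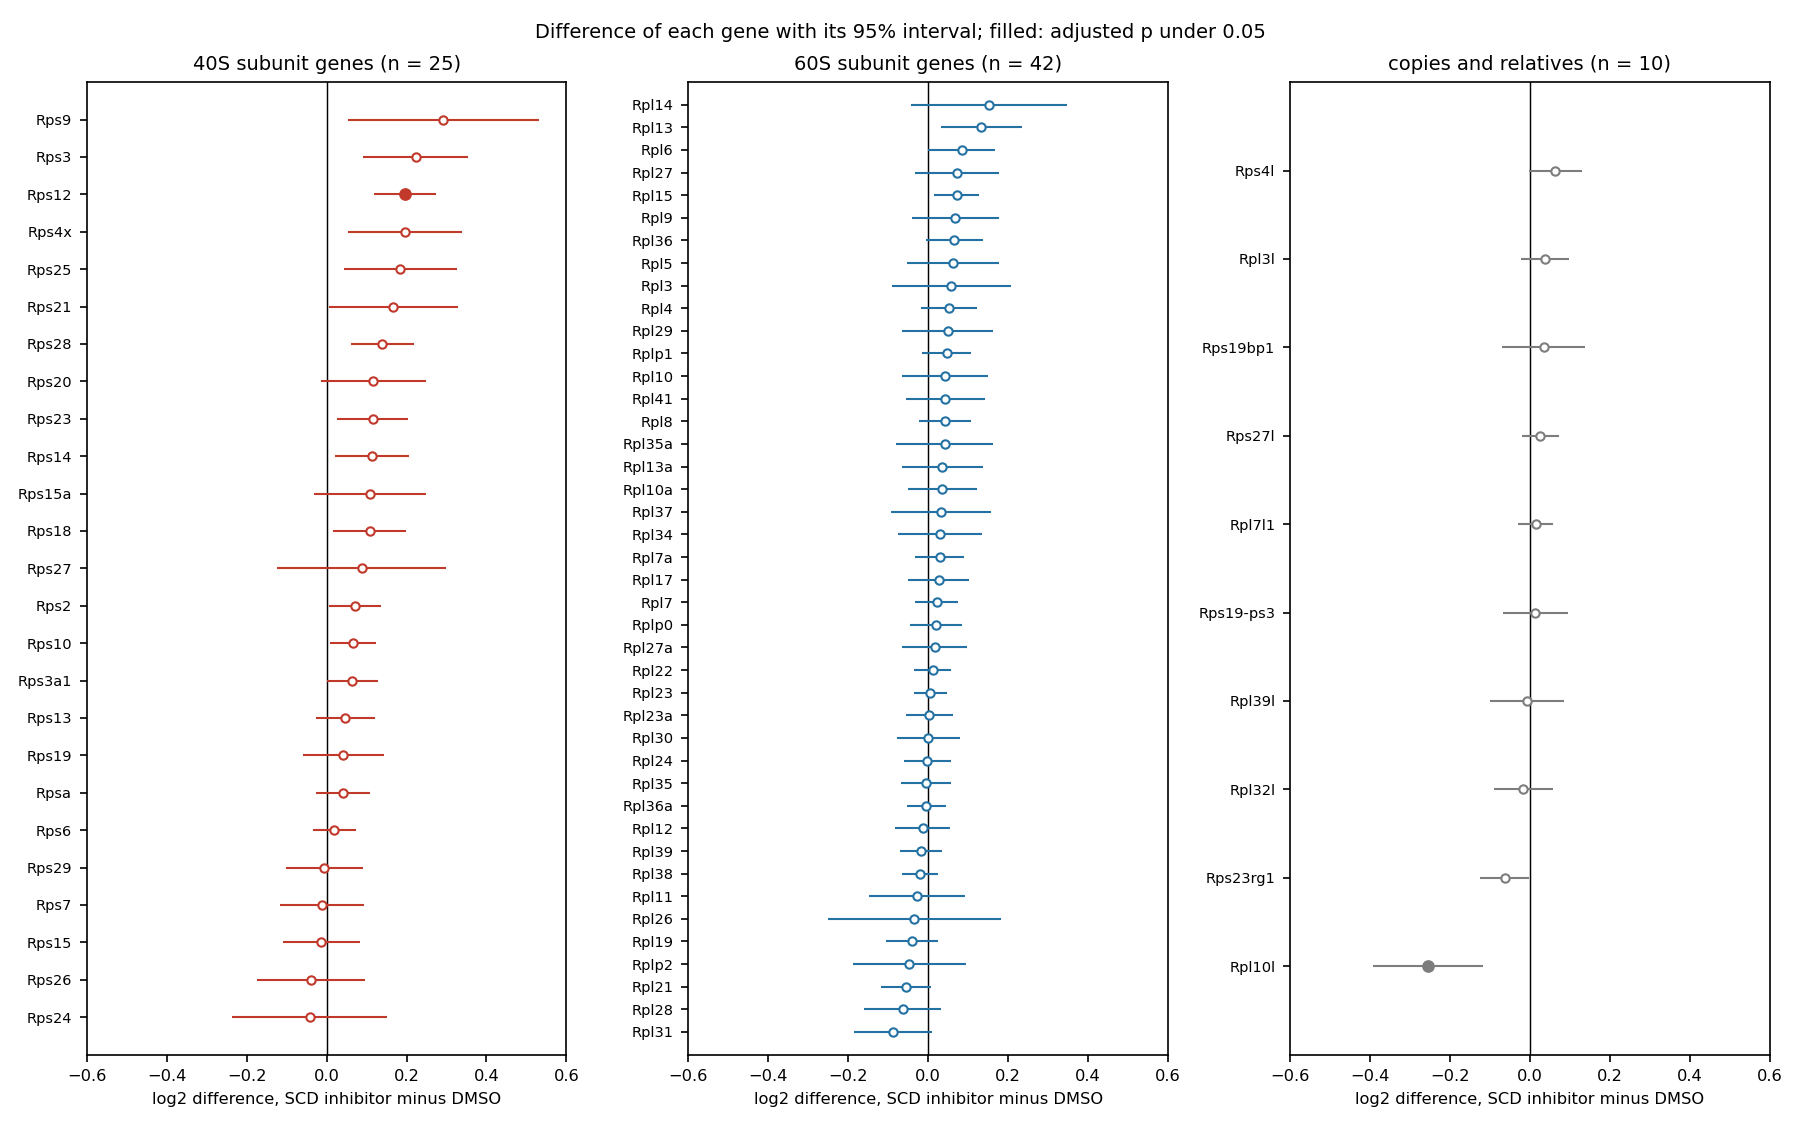
Log2 difference, SCD inhibitor minus DMSO, of each member (points) with its 95% interval (bars), in 25 genes of the 40S subunit, 42 of the 60S subunit and 10 copies and relatives. Filled points passed an adjusted p of 0.05; 40S genes lie mostly right of 0, with a median of 0.087, and 60S genes close to it, with a median of 0.028.

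For the row that stands for each gene, the unadjusted intervals bound how large a hidden change could be, given the scatter among the arrays. Other rows of a gene could fall outside them, as a dimmer row of Rpl12 did (0.494 against an interval of -0.083 to 0.056). The 95% interval of the difference lay wholly within ±0.25 (a 1.19-fold change) for 67 of 77 members, for 18 of 25 40S genes and for 40 of 42 60S genes. It lay within ±0.5 for 76 of 77, the exception being Rps9 with an upper bound of 0.53. Members read high on the arrays, 10 of them with a mean above 12. Whether the array compressed differences near the top of the scale was not tested. Other genes with a mean between 11 and 13 gave differences of -1.36 to 0.58, and 79 of these 439 genes were called.

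**Figure D2:**
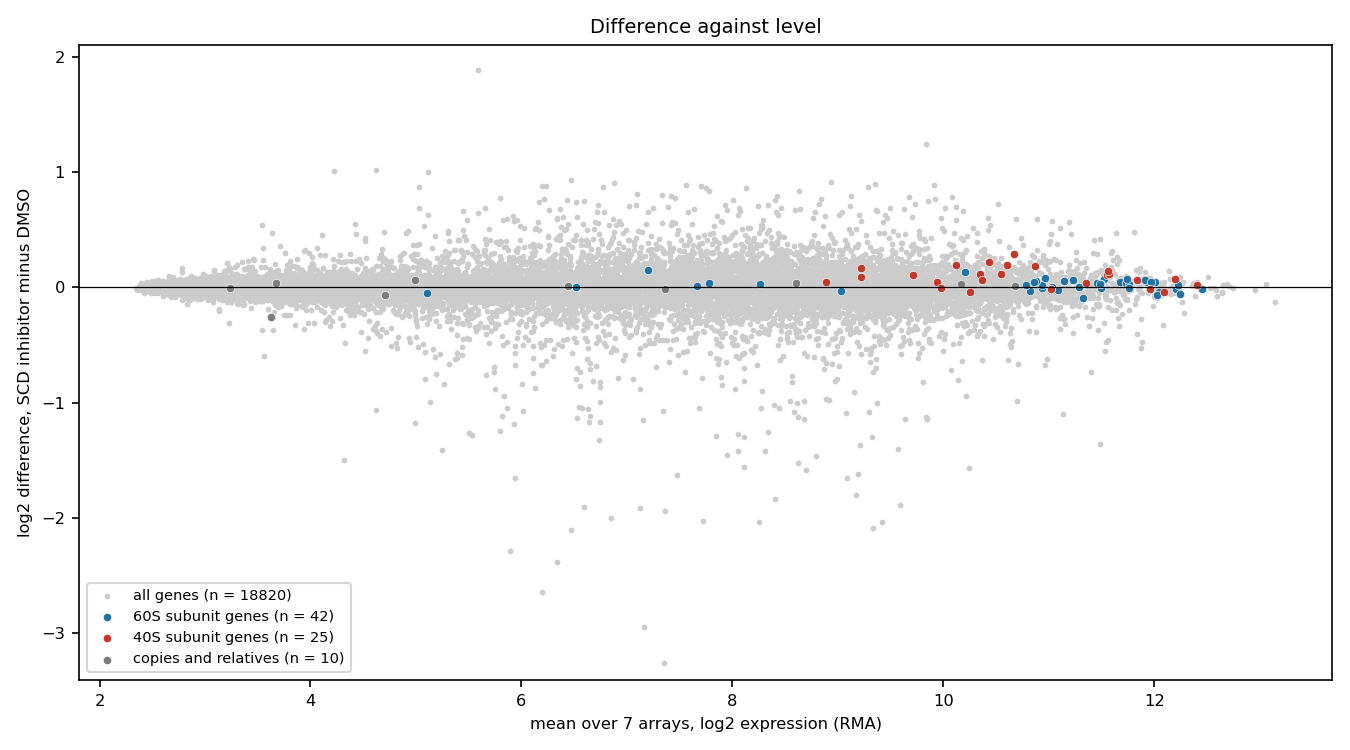
Log2 difference, SCD inhibitor minus DMSO, against the mean level over 7 arrays, for all 18820 genes (grey) and the members in colour. The members lie mostly at the right and close to 0, with quartiles of -0.0052 and 0.068. The 1545 other genes of like level have quartiles of -0.078 and 0.065. The 77 members range from -0.25 to 0.29, the lowest being Rpl10l at a level of only 3.63. The 1545 other genes, a larger set, range from -1.57 to 0.78.

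Rps12, which sits on the small subunit near its beak, read 10.16, 10.29 and 10.24 with SCD inhibitor, against 10.03, 10.04, 10.05 and 10.03 in DMSO. Every inhibitor array lay above every DMSO array, and the DMSO arrays were nearly equal (SD 0.013). The difference was 0.195 (SE 0.033, adjusted p = 0.0145 in limma). The call ended without DMSO 4 (adjusted p = 0.0529) and without SCD inhibitor 3 (adjusted p = 0.0632), and the adjusted p ran from 0.00647 to 0.0632 over the 7 fits without 1 array. Rps12 had 12 rows in the table. In a fit of all 28996 rows as features, added after seeing the data, 11 of the 12 passed, with differences of 0.180 to 0.210. The remaining row gave 0.211 and did not pass (adjusted p = 0.150 in limma). The 11 rows are not independent readings, since 4 rows held identical values on every array and rows of a gene can share probes.

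Of the other 40S genes, 6 more had every inhibitor array above every DMSO array without passing the test: Rps3, Rps9, Rps14, Rps23, Rps25 and Rps28. With Rps12 that made 7 of 25 (28%), where all genes gave 8.30% and other genes at a like level 16.8%. No 40S gene and no 60S gene had its inhibitor arrays wholly below its DMSO arrays, where all genes gave 9.02% and the genes of like level 19.6%. Rpl6 was the only 60S gene with the inhibitor arrays wholly above, at 10.99, 11.01 and 11.04 against 10.97, 10.98, 10.89 and 10.86 in DMSO.

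Rps28, a small 40S protein at the mRNA exit, read 11.67, 11.59 and 11.65 with SCD inhibitor, against 11.50, 11.44, 11.55 and 11.51 in DMSO. Its difference of 0.139 (SE 0.033) just missed the threshold (adjusted p = 0.0529 in limma). Rps3, which lines the mRNA entry and also acts in DNA repair, read 10.45, 10.61 and 10.62 with SCD inhibitor, against 10.39, 10.35, 10.24 and 10.38 in DMSO. Its difference was 0.223 (SE 0.055, adjusted p = 0.0614). Both sat close to the line: Rps3 passed without SCD inhibitor 1 (adjusted p = 0.0309), and both passed with the dimmest 25% of genes dropped (adjusted p = 0.0420 for Rps3 and 0.0432 for Rps28). Rps9, whose protein takes part in early 40S assembly, had the highest difference of all members, 0.292 (SE 0.100, adjusted p = 0.152). It read 10.73, 10.95 and 10.84 with SCD inhibitor, against 10.30, 10.66, 10.57 and 10.67 in DMSO. Its groups did not overlap, DMSO 1 stood well below the other DMSO arrays, and without DMSO 1 the difference of Rps9 was 0.210.

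Rps4x, encoded on the X chromosome, read 10.62, 10.76 and 10.77 with SCD inhibitor, against 10.42, 10.62, 10.56 and 10.48 in DMSO, so that one DMSO array lay just above the lowest inhibitor array. Its difference was 0.195 (SE 0.060, adjusted p = 0.117). Rps25, a protein needed by certain viral internal ribosome entry sites, read 10.89, 10.99 and 11.04 with SCD inhibitor, against 10.69, 10.88, 10.86 and 10.73 in DMSO, a difference of 0.185 (SE 0.059). Its lowest inhibitor value lay just above its highest DMSO value. Rps14, whose human counterpart is lost in the 5q- syndrome, had a difference of 0.113 (SE 0.039), Rps23, a protein of the decoding centre, one of 0.115 (SE 0.037), and Rps21 one of 0.167 (SE 0.067). None of these passed (adjusted p from 0.117 to 0.212 in limma).

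**Figure D3:**
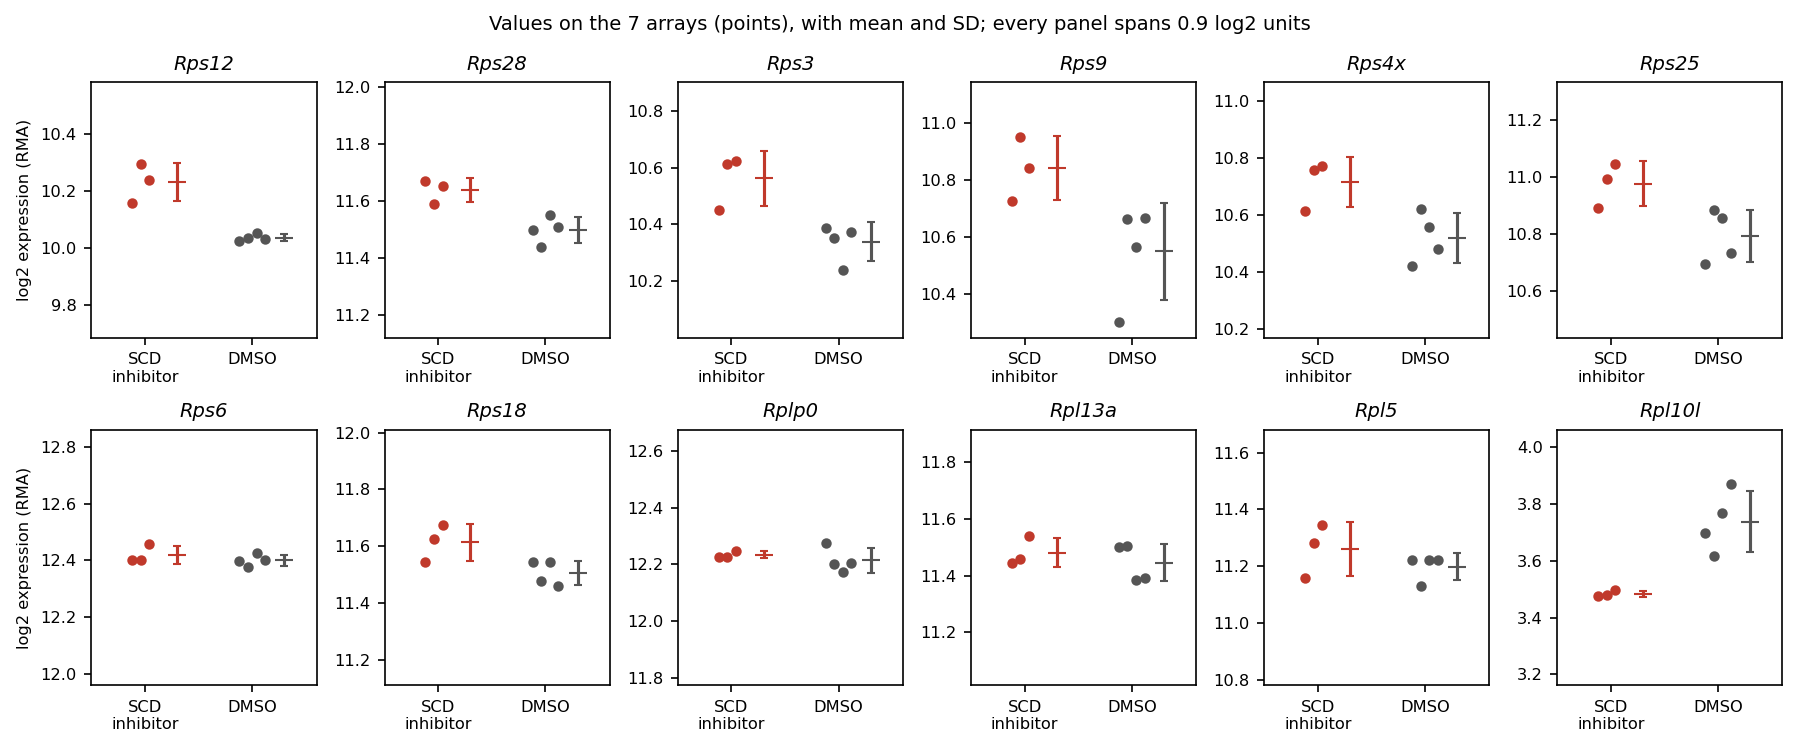
Log2 expression of 12 members on each array (points), SCD inhibitor left and DMSO right, with mean and SD; every panel spans 0.9 log2 units. The groups stand apart for Rps12, Rps28, Rps3, Rps9, Rps25 and Rpl10l, and meet or overlap for Rps4x, Rps6, Rps18, Rplp0, Rpl13a and Rpl5.

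The differences of the 40S genes were small and mostly of one sign. The difference was above 0 in 20 of 25 40S genes, in 28 of 42 60S genes and in 47.3% of all genes. At an unadjusted p under 0.05, 13 of 25 40S genes (52.0%) were higher and none lower, against 2 of 42 60S genes (4.76%) higher and none lower, those being Rpl13 and Rpl15. Over all genes 10.9% were higher and 11.0% lower by that rule, and over other genes at a like level 19.2% and 22.3%. By array, the median of the 40S genes stood 0.058, 0.097 and 0.101 above their DMSO means with SCD inhibitor, while the 4 DMSO arrays gave -0.00098 to 0.017. The same median of the 60S genes was 0.0017, 0.023 and 0.027 with SCD inhibitor and -0.0072 to 0.022 in DMSO, so the 60S values of the groups overlapped. All 3 inhibitor arrays lay above all DMSO arrays for the 40S median, and SCD inhibitor 1 was the lowest of them. On SCD inhibitor 1, 20 of the 25 40S genes were above their DMSO mean, on SCD inhibitor 2 it was 23 and on SCD inhibitor 3 again 20. The DMSO arrays, which make up that mean, gave 11, 12, 17 and 11 for DMSO 1 to 4. SCD inhibitor 1 also had the lowest median over all rows of the table, 4.88 against 4.93 to 4.94 on the other 6 arrays.

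The 40S genes were read somewhat lower on the intensity scale than the 60S genes (median 10.60 against 11.31), which is no measure of their relative abundance. Within levels of 8 to 11 the median difference was 0.113 over 15 40S genes and 0.029 over 11 60S genes, and 9 of the 15 were higher at an unadjusted p under 0.05 against 1 of the 11. Within levels of 11 to 13 it was 0.053 over 10 40S genes and 0.028 over 26 60S genes, with 4 of the 10 and 1 of the 26 higher by the same rule. Of the genes other than members, 20.3% in the lower band and 19.8% in the upper one were higher by that rule. The median of the 40S genes was above that of the 60S genes in both bands. The difference between the subunits was not tested.

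Other 40S genes had groups that met or overlapped. Rps6, the substrate of the S6 kinases, read 12.40, 12.40 and 12.46 with SCD inhibitor, against 12.40, 12.38, 12.43 and 12.40 in DMSO, a difference of 0.019 with a 95% interval of -0.035 to 0.073. Rpsa, which doubles as a laminin receptor, read 11.36, 11.43 and 11.34 with SCD inhibitor, against 11.35, 11.32, 11.35 and 11.31 in DMSO, and its groups overlapped (difference 0.041, SE 0.028). Its 4 other rows, at lower levels down to 9.08, gave larger differences of up to 0.174, none of them called. Rps24 (-0.042, SE 0.081) and Rps26 (-0.039, SE 0.057) are both linked to Diamond-Blackfan anaemia in humans. By the row that stands for each gene, they had the lowest differences among the 40S genes. Rps19, the gene most often mutated in that disease, had one of 0.042 (SE 0.042). Other rows ranked differently: all 3 rows of Rps15 were below 0, from -0.013 down to -0.146, and a dimmer row of Rps26 gave 0.044. None of these rows passed.

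No 60S gene passed, and their differences ran from -0.088 for Rpl31 to 0.152 for Rpl14. Rpl31 read 11.34, 11.29 and 11.21 with SCD inhibitor, against 11.35, 11.30, 11.40 and 11.41 in DMSO. Its adjusted p was 0.273, and its groups overlapped. Rpl14 had a single row, at a level of 7.20. It read 7.19, 7.19 and 7.48 with SCD inhibitor, against 7.18, 7.19, 7.15 and 7.02 in DMSO. The highest DMSO value of Rpl14 equalled its lowest inhibitor values, and its adjusted p was 0.349 in limma. Rpl13 had a difference of 0.133 (SE 0.042, adjusted p = 0.129) with 10.30, 10.33 and 10.21 in SCD inhibitor, against 10.21, 10.18, 10.12 and 10.08 in DMSO, touching at a single value. Rpl12 (-0.014, SE 0.029) and Rpl21 (-0.056, SE 0.026), of the 5 members with the highest level, did not pass. A dimmer row of Rpl12, at 6.67, gave a larger difference of 0.494, which did not pass in the fit of all rows (adjusted p = 0.0807 in limma). One of the 9 rows of Rpl13, at 9.65, passed in the fit of all rows (0.150, adjusted p = 0.0310).

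The stalk proteins, which recruit elongation factors to the large subunit, showed no call. Rplp0 read 12.23, 12.23 and 12.25 with SCD inhibitor, against 12.28, 12.20, 12.17 and 12.21 in DMSO, a difference of 0.020 with a 95% interval of -0.045 to 0.084. Its inhibitor values lay inside the DMSO range. Rplp1 differed by 0.046 (SE 0.026), but its 2 other rows, lower on the scale, gave 0.116 (adjusted p = 0.0523 in the fit of all rows) and 0.137 (0.504). Rplp2 differed by -0.047 (SE 0.059), on a single row with a mean of 5.11, below the 5.59 of the median gene and far down the scale from most members.

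The 60S proteins that bind Mdm2, the ubiquitin ligase of p53, when ribosome assembly fails did not pass. Rpl5 read 11.16, 11.28 and 11.34 with SCD inhibitor, against 11.22, 11.13, 11.22 and 11.22 in DMSO (difference 0.062, SE 0.049). Rpl11 differed by -0.028 (SE 0.050) and Rpl23 by 0.0049 (SE 0.017), both with overlapping groups. Rpl26, which binds p53 mRNA, differed by -0.035, and its interval of -0.25 to 0.18 was the widest of this group.

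Members in use as reference genes did not pass either. Rpl13a read 11.45, 11.46 and 11.54 with SCD inhibitor, against 11.50, 11.50, 11.38 and 11.39 in DMSO (difference 0.036, 95% interval -0.066 to 0.138). Rps18 read 11.54, 11.63 and 11.67 with SCD inhibitor, against 11.54, 11.48, 11.54 and 11.46 in DMSO, with a difference of 0.108 (SE 0.038, adjusted p = 0.164). The highest DMSO values of Rps18 equalled its lowest inhibitor value, and its interval of 0.017 to 0.200 leaves out 0 before adjustment. Rps29 differed by -0.0052 (SE 0.040) and had the same value, 9.98, on all DMSO arrays. Of the 17 measured reference genes outside the ribosome 4 were called higher: Tuba1a (0.689), Polr2a (0.312), Tubb5 (0.264) and Ppia (0.129, adjusted p = 0.0326), where 3.62% of all genes and 8.03% of the other genes at a like level were called higher. The call of Tuba1a ended without SCD inhibitor 2 (adjusted p = 0.0512) and that of Polr2a without SCD inhibitor 3 (adjusted p = 0.0529). That of Ppia ended without DMSO 1, 2 or 3 and without SCD inhibitor 2 or 3, with adjusted p up to 0.0990. Gapdh (-0.020), Actb (-0.038) and Tbp (0.0020) did not pass.

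The copies and relatives lay mostly low on the scale, and 1 of 10 was called, where limma called 8.00% of all genes, 4.37% lower. Rpl10l, which replaces Rpl10 in male germ cells, read 3.48, 3.48 and 3.50 with SCD inhibitor, against 3.70, 3.62, 3.77 and 3.87 in DMSO. Its inhibitor arrays all lay below its DMSO arrays (difference -0.254, SE 0.058, adjusted p = 0.0459 in limma), but near the floor of the table, whose lowest value was 2.23. The call held in 1 of the 7 fits without 1 array, that without DMSO 2, and ended in the fits without DMSO 1, 3 or 4 or SCD inhibitor 1, 2 or 3, with adjusted p from 0.0546 to 0.138. Its somatic counterpart Rpl10 differed by 0.043 (SE 0.045).

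The rows standing for the other paralogs differed by less than 0.1, as did those of their standard genes, except Rps4x. Rpl3l, a muscle form, differed by 0.038 and Rpl3 by 0.058. Rpl39l, a testis form, differed by -0.0060 and Rpl39 by -0.018. Rps27l, a target of p53, differed by 0.026 (SE 0.019) and Rps27 by 0.087 (SE 0.089). Rpl7l1 differed by 0.014 and Rpl7 by 0.022. Of Rpl22 and Rpl36a only the standard gene had a row, with differences of 0.011 (SE 0.019) and -0.0052 (SE 0.020). Rps4l differed by 0.064 (SE 0.028), against 0.195 for Rps4x, and a second row of Rps4l gave -0.143. Rpl3l, Rpl39l and Rps4l read between 3.24 and 4.99, and Rps27l and Rpl7l1 above 10. Rps23rg1 differed by -0.063 (SE 0.025, adjusted p = 0.211) at a level of 4.70, and Rps19-ps3, Rpl32l and Rps19bp1 by 0.014, -0.016 and 0.035.

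Ribosomal protein genes have many processed copies in the genome, and 56 of the 77 genes had more than 1 row, 388 rows in all with Rpl21 (41 rows) and Rpl29 (24 rows) at the top. The median over the rows of a gene had the same sign as the row that stands for it in 51 of these 56. Among genes with at least 5 rows, all 41 rows of Rpl21, all 8 of Rpl31 and all 5 of Rpl28 were below 0. All rows were above 0 for the 40S genes Rps12 (12), Rps2 (18), Rps18 (7), Rps28 (7), Rps25 (6), Rps4x (5), Rps23 (5) and Rpsa (5), and for the 60S genes Rpl13 (9), Rpl15 (8), Rpl10 (6), Rpl5 (5) and Rpl41 (5). Rpl29 was one of the 5 genes where the sign differed: its representative row gave 0.049 and the median of its rows -0.036. Of the 388 rows 13 passed, all higher: 11 of Rps12, 1 of Rps9 (0.266, adjusted p = 0.0189) and 1 of Rpl13, that is 3.35% of them, where 2.46% of all 28996 rows were called higher. Rows of a gene can share probes and can read each other's transcripts, so they are not replicates. A further 64 rows named a member among several symbols, and none passed (differences of -0.091 to 0.351).

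**Figure D4:**
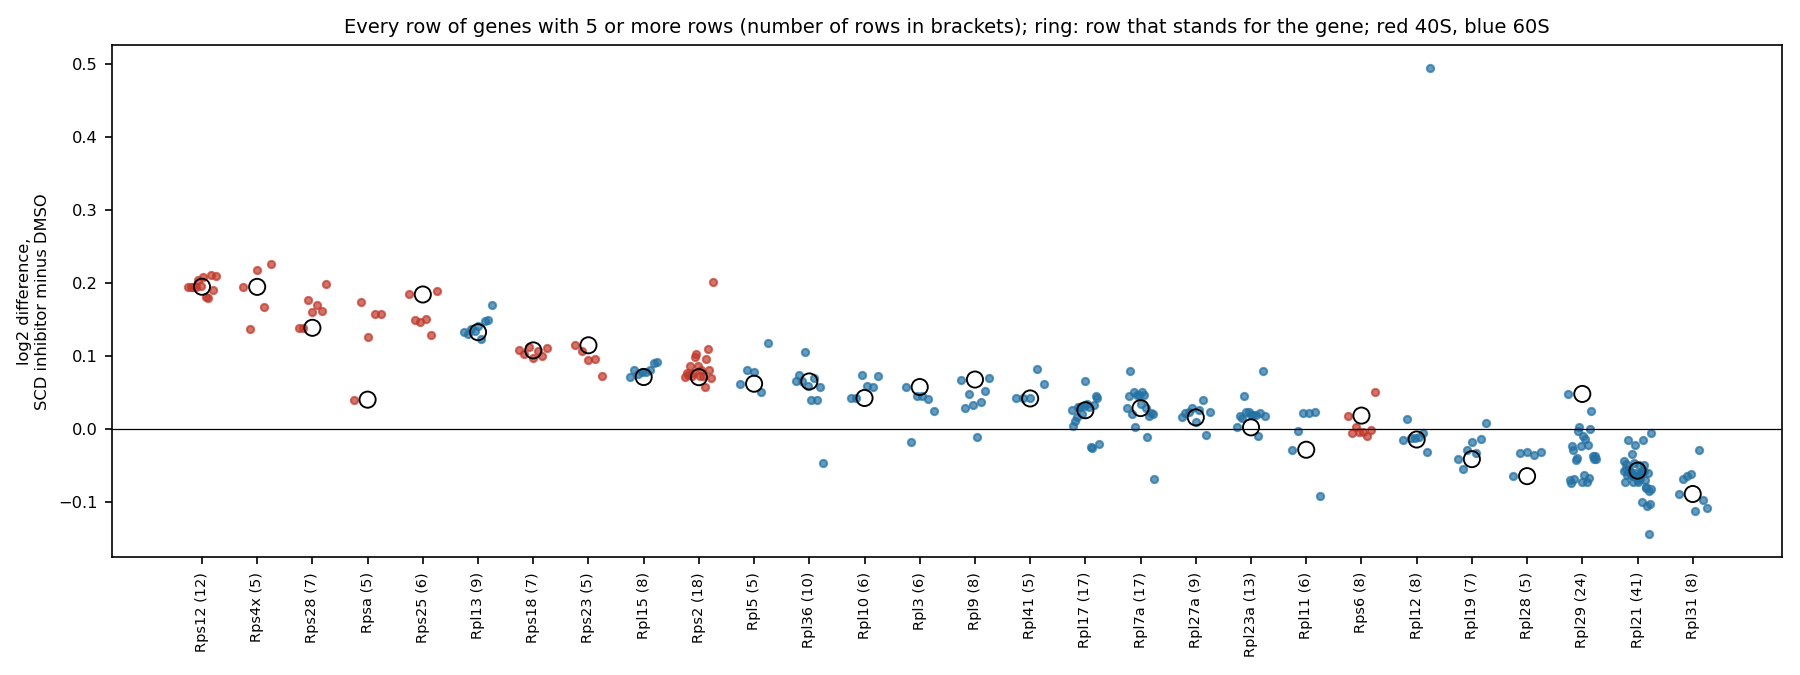
Log2 difference, SCD inhibitor minus DMSO, of every row of the 28 genes with at least 5 rows (red 40S, blue 60S), ordered by the median over rows, with a ring around the row that stands for the gene. The 12 rows of Rps12 lie between 0.180 and 0.211, and the 41 rows of Rpl21 all lie below 0.

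The genes around the ribosome were set beside its proteins through lists drawn up by function. Of 79 measured genes of ribosome assembly and rRNA processing 6 rose and none fell (median 0.036), where 3.62% of all genes and 8.03% of those at a like level to the members rose: Nop56, a core protein of the small nucleolar particles that guide rRNA methylation, Gnl3 (nucleostemin), Nolc1, Noc3l, Ppan and Ddx21. Nolc1, a nucleolar chaperone of those particles, averaged 9.53 with SCD inhibitor and 9.30 in DMSO (difference 0.226, SE 0.030, adjusted p = 0.00604). Nolc1 and Ddx21, an RNA helicase of rRNA synthesis (0.165), kept their calls in all 7 fits without 1 array. Nop56 differed by 0.304 but lost its call without DMSO 4 (adjusted p = 0.0561), SCD inhibitor 1 (0.0525), SCD inhibitor 2 (0.0573) or SCD inhibitor 3 (0.0673). The calls of Gnl3 and Ppan held in 1 of these fits, that without SCD inhibitor 1, and ended in the other 6, with adjusted p up to 0.147 and 0.103. That of Noc3l held without DMSO 3 or DMSO 4 and ended in the other 5 (adjusted p up to 0.106). At an unadjusted p under 0.05, 21 of the 79 were higher and 5 lower, against 10.9% and 11.0% of all genes. Of 20 genes of RNA polymerase I and its factors 1 rose, Polr1b (0.181), and its call held without DMSO 4 and ended in the other 6 fits (adjusted p up to 0.101). At an unadjusted p under 0.05, 2 of these 20 were higher and 5 lower, and their median difference was -0.0020.

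Of 34 translation initiation factors 4 fell and none rose (median -0.030), where 4.37% of all genes fell. At an unadjusted p under 0.05, 10 were lower and 3 higher. By that rule 11.0% of all genes were lower and 10.9% higher, and of those at a like level to the members 22.3% and 19.2%. Eif3d, the cap-binding subunit of eIF3, averaged 10.39 with SCD inhibitor and 10.63 in DMSO (difference -0.236, SE 0.039). The call of Eif3d ended without SCD inhibitor 2 (adjusted p = 0.0608) or SCD inhibitor 3 (0.0648). Eif4g3 (-0.317) kept its call without SCD inhibitor 1, Eif2s3x (-0.139) without DMSO 3 and the poly(A)-binding protein gene Pabpc1 (-0.146) without DMSO 1. In the other 6 fits without 1 array these calls ended, with adjusted p up to 0.0919, 0.0915 and 0.0822. None of 10 genes listed as elongation factors passed in limma. At an unadjusted p under 0.05, 3 of them were higher and none lower, where 10.9% of all genes were higher and 11.0% lower. The 3 were Eef1g, Eef1b2 and Eef2k, the last of which encodes the kinase that inhibits Eef2 (0.101). The smallest p were those of Eef1g (0.095, SE 0.033, adjusted p = 0.160) and Eef1b2 (0.086, SE 0.033, adjusted p = 0.191), both subunits of the exchange factor of Eef1a1. Eef1a1 itself, which delivers aminoacyl-tRNA to the ribosome, differed by -0.0021 (SE 0.020) and Eef2, the translocase, by 0.013 (SE 0.016). Of 18 other genes known for a TOP tract, a list that shares members with both factor lists, 1 fell, Pabpc1, and the median was 0.037. Fau, which encodes a 40S protein outside the name rule, differed by -0.028 (SE 0.059).

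Among 24 regulators of ribosomal protein synthesis 4 rose and 2 fell, where 3.62% of all genes rose and 4.37% fell. Mlst8, a subunit of both mTOR complexes, read 8.21, 8.40 and 8.28 with SCD inhibitor, against 7.84, 7.92, 7.95 and 7.96 in DMSO, and kept its call in all 7 fits without 1 array (difference 0.375, SE 0.051, adjusted p = 0.00668). Eif4ebp1, an inhibitor of cap-dependent translation and a target of ATF4, rose by 0.300, a call that ended without SCD inhibitor 2 (adjusted p = 0.0545) or SCD inhibitor 3 (0.0570). Of genes known to restrain mTORC1, Sesn1 (0.446) and Akt1s1 (0.247) rose, and Sesn2 (-0.303) and Ddit4 (-0.126) fell. The call of Sesn1 held without DMSO 2 or SCD inhibitor 1, that of Akt1s1 without SCD inhibitor 1 or 2, that of Sesn2 without SCD inhibitor 1 or 3 and that of Ddit4 without DMSO 4. In the other fits without 1 array these calls ended, with adjusted p up to 0.139, 0.115, 0.110 and 0.120. Larp1 (0.038), Mtor (-0.136) and Myc (0.208) did not pass. Of 75 mitochondrial ribosomal protein genes, which serve the separate ribosome of the organelle, 2 rose, Mrpl11 (0.373) and Mrps34 (0.226), and none fell, where 3.62% of all genes rose and 4.37% fell. The call of Mrpl11 ended without DMSO 3, SCD inhibitor 1 or SCD inhibitor 3 (adjusted p up to 0.0665). That of Mrps34 held without SCD inhibitor 1 and ended in the other 6 fits (up to 0.156). The median over this list was -0.011, below those of both cytosolic subunits.

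**Figure D5:**
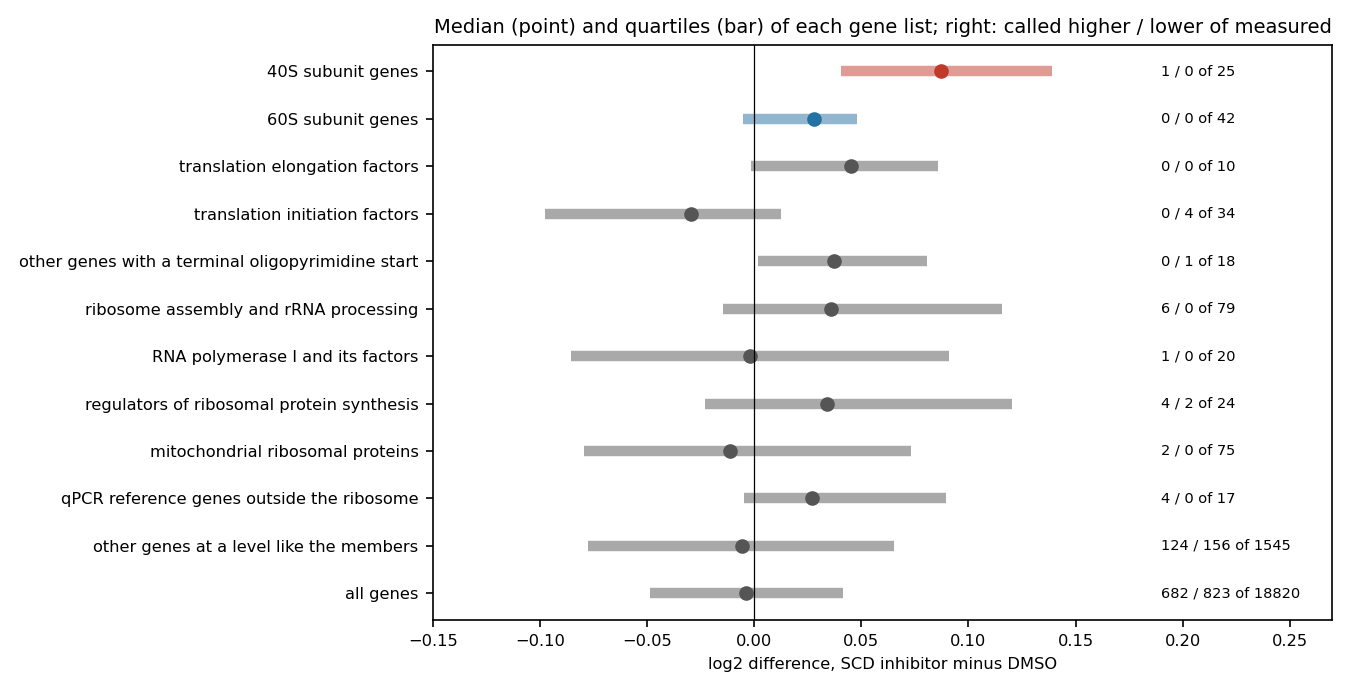
Median (points) and quartiles (bars) of the log2 difference, SCD inhibitor minus DMSO, for each gene list, with the number called higher and lower of those measured at the right. The 40S genes have the highest median, 0.087, with 1 called, and the initiation factors the lowest, -0.030, with 4 called lower.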

How the data were processed

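The deposited values are log2 expression levels per row (transcript cluster) that the authors computed by RMA, as the submitters' processing notes name it. Its version and the annotation release used were not given in the sources used here. Total RNA (100 ng) from 7 samples went onto Affymetrix arrays, 1 per sample, per the labels' protocols. Of 28996 rows, 21218 carried 1 gene symbol in GEO's platform annotation, 1881 several and 5897 none. Each gene was read from its row of highest mean level. All 7 arrays entered 1 model fitted with limma 3.58.1 (lmFit, eBayes) in R 4.3.3, with p adjusted by Benjamini and Hochberg over 18820 genes and no filter on dim genes. The fit was checked on simulated data. Members and lists were chosen with earlier results of these data known. Named are called members, members of known special role, paralog pairs, those of highest and lowest level, and called genes of each list. Others printed were chosen after their values were seen. Alternatives covered the replicate block, normalization, dim genes, array weights, the prior, the row of a gene and each array left out.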

Additional observations from a re-analysis of the deposited data

Results flagged for a closer look

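The 4 DMSO arrays were searched for a single value far from the other 3, by its gap over the range against Dixon's 95% critical value, in 30 named members and 3 array medians, and 8 of these 33 had one. Chance flags about 1 in 20 groups, and many deposited values are tied, which inflates this ratio. DMSO 1 was high for Rpl12 (12.29 against 12.18 to 12.20, ratio 0.830) and for Rpl36a (11.52 against 11.49 on the others, 0.933). DMSO 2 was low for Rpl5 (11.13 against 11.22 on each of the others, ratio 1) and for Rps27 (9.07 against 9.22, 0.987). DMSO 3 was low for Rpl39l (3.17 against 3.25 to 3.27, 0.866). DMSO 4 was low for Rpl3l (3.60 against 3.67 on each of the others, ratio 1) and for Rps4l (4.93 against 4.97 to 4.98, 0.878). For the median of the 40S genes by array, DMSO 3 stood at 0.017 against -0.00098 to 0 on the others (ratio 0.946). Neither Rps12 nor Rpl10l had such a value.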

How the results depend on the processing

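The members called were 2 with all arrays, 1 higher and 1 lower. With the replicate number as a block it was 1 (1 higher, Rps9, and 0 lower), with the arrays centred on their median 6 (5 higher, all 40S: Rps3, Rps4x, Rps9, Rps12 and Rps25), and 13 rows passed with every row as a feature, chosen after seeing the data. The higher calls were 2 after a further quantile normalization, with array weights, with a trend and robust prior or with the mean over all rows of a gene, and 3 with the genes of lowest mean, 25% or 50% of all, left out. The share of all genes called was 4.76% with the block, 12.4% with arrays centred and 11.3% after the further quantile normalization. It was 12.6% with the dimmest 25% left out and 21.1% with the dimmest 50% left out. No member was called lower with array weights (Rpl10l at 0.0571) or with either dim filter, which removes Rpl10l. Without both arrays numbered 1, an alternative chosen after seeing the data, 1 member was called, 1 higher and 0 lower. Over the 7 fits without 1 array there were 0 to 2 calls, 0 to 2 higher and 0 to 1 lower. Rps12 had an adjusted p of 0.0804 in limma with the block, which also ended the call of Ddx21 (0.0840) but not those of Nolc1 (0.0453), Mlst8 (0.0351) and Tubb5 (0.0278). Rps28 passed when the dimmest 25% (0.0432) or 50% (0.0325) were dropped and with the trend (0.0434). Rps3 passed in both normalizations, with both dim filters, with array weights and without SCD inhibitor 1 (0.0080 to 0.042). The median difference of the members was 0.050 with arrays centred (60S genes 0.043) and 0.023 to 0.041 without 1 array, that of the 40S genes 0.059 to 0.0996 and that of the 60S genes 0.013 to 0.034. It stayed above 0 for members, 40S and 60S genes in all 16 alternatives. The called genes of the comparison lists numbered 23, 10 with the block, 36 with arrays centred or the dimmest 50% dropped, 9 without both arrays numbered 1 and 7 to 23 without 1 array. Replicate numbers were no proven pairing: same-numbered samples correlated at 0.174, 0.138 and 0.080 in their deviations from the group means, and 2 of 3 inhibitor arrays correlated best with their own number. Of 1015 values of single genes, 109 lost a call, 15 gained one and none that was called changed direction, while 34 values of 14 genes turned sign without a call. The files used here give no detection calls.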
